A study of Mus musculus with 12 samples.

Results

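A set of 10 genes that restrain or feed mitogen-activated protein kinase (MAPK) and Ras signalling was followed in mouse neutrophils stimulated through immobilized immune complexes (IC). The genes were *Dusp1*, *Dusp2*, *Dusp4*, *Dusp5*, *Dusp6*, *Dusp16*, *Map3k8*, *Spred1*, *Spred2* and *Ralgds*. They are 10 of the 19938 genes that a single-gene transcript cluster of the array names, and each was found by its symbol. *Spred2* has 2 such clusters, and the one with the higher mean signal over the 12 arrays was used; the other genes have 1 each.

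Bone marrow neutrophils, labelled Ly6G+, of wild-type (C57BL/6) mice or of mice homozygous for the Card9 tm1Jrld mutation (*Card9*-/-), backcrossed to C57BL/6, were kept for 4 h on IC, made of human serum albumin and an antibody against it, or on human serum albumin alone as the control. The *Card9*-/- mutation was not limited to neutrophils. The study's methods take neutrophils from intact mice or from chimeras and do not say which served for the arrays. Wild-type mice were purchased, and the study used animals of both sexes a few months old. How many mice stand behind an array is not stated in the labels or methods. The 2 genotypes and 2 surfaces gave 4 groups, and each of 3 experiments, done at separate time points, contributed 1 array to every group. Adherent and nonadherent cells were lysed together, and 150 ng of RNA were hybridized to an Affymetrix mouse gene array. Values are log2 signals as deposited, and a difference of log2 signals is called a log2 difference; levels of different genes were not set against each other because each is read by its own probes.

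MAPKs are activated by dual phosphorylation, and dual specificity phosphatases (the DUSP proteins, also called MAPK phosphatases) remove both phosphates. Many of their genes are induced by the pathway they switch off, which makes them feedback inhibitors of ERK, JNK and p38 in stimulated leukocytes. SPRED1 and SPRED2, relatives of the Sprouty proteins, restrain the Ras to Raf step at the membrane. *Map3k8* encodes TPL2, a kinase that activates the ERK branch downstream of innate immune receptors and is held inactive by an NF-κB precursor, and *Ralgds* encodes an exchange factor through which Ras activates Ral GTPases.

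The promoters of *Dusp1*, *Dusp5* and *Dusp2* are shown because their genes stand for the patterns found: the first pair had a higher mean signal on IC in both genotypes, and the last had one in wild-type cells and a mean near the control in *Card9*-/- cells. Each is the run of 250 bases before the annotated start, read 5′ to 3′ on the gene's strand from RefSeq in build GRCm38.p6, which held windows for 8 of the 10 genes. The *Dusp1* window is chr17:26508473-26508722 on the minus strand, the *Dusp5* window chr19:53528895-53529144 on the plus strand and the *Dusp2* window chr2:127335909-127336158 on the plus strand. Capitals mark TGACG, the core of the cAMP response element, on either strand and, in *Dusp5*, also the CArG box, the site of serum response factor.
Dusp1: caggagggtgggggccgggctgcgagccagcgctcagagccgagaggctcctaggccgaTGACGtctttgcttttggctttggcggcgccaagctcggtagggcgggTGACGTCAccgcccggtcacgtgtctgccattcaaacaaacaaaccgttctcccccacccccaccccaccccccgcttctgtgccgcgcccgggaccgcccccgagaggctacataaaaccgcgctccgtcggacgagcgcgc
Dusp5: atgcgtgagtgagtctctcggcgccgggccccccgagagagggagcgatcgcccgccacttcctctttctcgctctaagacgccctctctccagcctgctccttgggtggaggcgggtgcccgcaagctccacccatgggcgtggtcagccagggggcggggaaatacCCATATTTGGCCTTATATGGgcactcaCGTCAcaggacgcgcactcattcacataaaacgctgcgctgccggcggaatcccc
Dusp2: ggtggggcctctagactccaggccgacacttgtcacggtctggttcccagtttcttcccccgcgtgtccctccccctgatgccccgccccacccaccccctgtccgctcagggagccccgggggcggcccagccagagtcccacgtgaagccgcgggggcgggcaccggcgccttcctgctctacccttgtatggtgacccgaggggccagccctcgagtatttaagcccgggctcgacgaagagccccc

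The *Dusp1* window held 3 matches to this core, whose first bases lie 191, 143 and 140 bases before the start; the last 2 overlap on opposite strands. The *Dusp5* window held 1 match at 55 bases and 2 adjoining CArG boxes at 82 and 72 bases. The core was present in 17.8% of the 32851 promoter windows in the table and a CArG box in 1.47%. *Dusp16* and *Spred2* had 1 core each, and *Dusp2*, *Dusp6*, *Spred1* and both windows of *Ralgds* had none. *Map3k8* and *Dusp4* had no window, so their promoters were not searched. None of the windows of the other genes held the AP-1 site TGANTCA, the ETS core CCGGAA or the consensus NF-κB site. The shares over all windows were 6.75%, 12% and 3.9%. All hits are matches of letters in a short window and were not tested as sites.

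The array medians lay between 5.27 and 5.93, with experiment 3 lowest, and those of 1 experiment lay close together. *Card9*, the deleted gene, had signals of 8.08 to 8.75 on the 6 wild-type arrays and of 5.56 to 6.42 on the 6 *Card9*-/- arrays. All 10 neutrophil markers were measured, and their mean log2 signal was 12.12 to 12.45 on the 12 arrays; 9 B cell markers had means of 5.23 to 8.50. The log2 signals of B cell markers were higher in *Card9*-/- than in wild-type cells by a median of 0.46 on the control surface (0.99, −0.03 and 0.40 in experiments 1, 2 and 3) and of 0.67 on IC (1.27, 0.03 and 0.68). Markers of mast cells, basophils and eosinophils had medians of 0.32 on the control surface and of 0.42 on IC (−0.08, 0.19 and 0.85). The summed linear signal of the B cell markers was 382 to 2090 in wild type control, 382 to 3680 in wild type IC, 376 to 2850 in *Card9*-/- control and 402 to 5480 in *Card9*-/- IC, lowest in experiment 2 in each group. For 8 measured markers of monocytes and macrophages the median difference was −0.05 on the control surface and −0.12 on IC (0.04, −0.51 and 0.03), and for 5 erythroid markers −0.17 and −0.22 (−0.49, −0.53 and 0.12 on IC). The summed monocyte and macrophage signal was 2840, 5440 and 3830 in wild type control and 4260, 5880 and 4910 in wild type IC, higher on IC in 3 of 3 experiments, and it was 2510, 4290 and 3450 in *Card9*-/- control and 2770, 3680 and 4460 in *Card9*-/- IC. The part of these cells in the differences below was not tested. Across the array, 47 of 28939 clusters passed the limma test between the genotypes on IC, 13 higher and 34 lower in *Card9*-/- cells, and the split was 5 and 39 after quantile normalization and 3 and 19 after median centring; without experiment 1 it turned to 52 and 24.

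The first comparison asked how the IC surface changed these genes in wild-type cells. All 10 genes had a higher mean signal on IC than on the control surface, with log2 differences of 0.10 to 1.26 and a median of 0.52, against a median of 0.04 and a share of 59.7% above 0 over all clusters. The increase was above 0 in all 3 experiments for 6 genes, *Dusp2*, *Dusp5*, *Dusp16*, *Spred1*, *Spred2* and *Ralgds*; this was so for 18.8% of all clusters. In limma, after Benjamini-Hochberg adjustment across the 28939 clusters, 0 of the 10 genes passed, as did 0.0% of all clusters, and a factorial model without moderation also gave 0. At an unadjusted p under 0.05, 8 of the 10 were higher, against 5.18% of all clusters. The genes had been picked with earlier results of these arrays known, so these counts describe the set and do not test it. The size depended on the experiment: the median over the 10 genes was 1.17, 0.56 and 0.17 in experiments 1, 2 and 3.

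**Figure D1:**
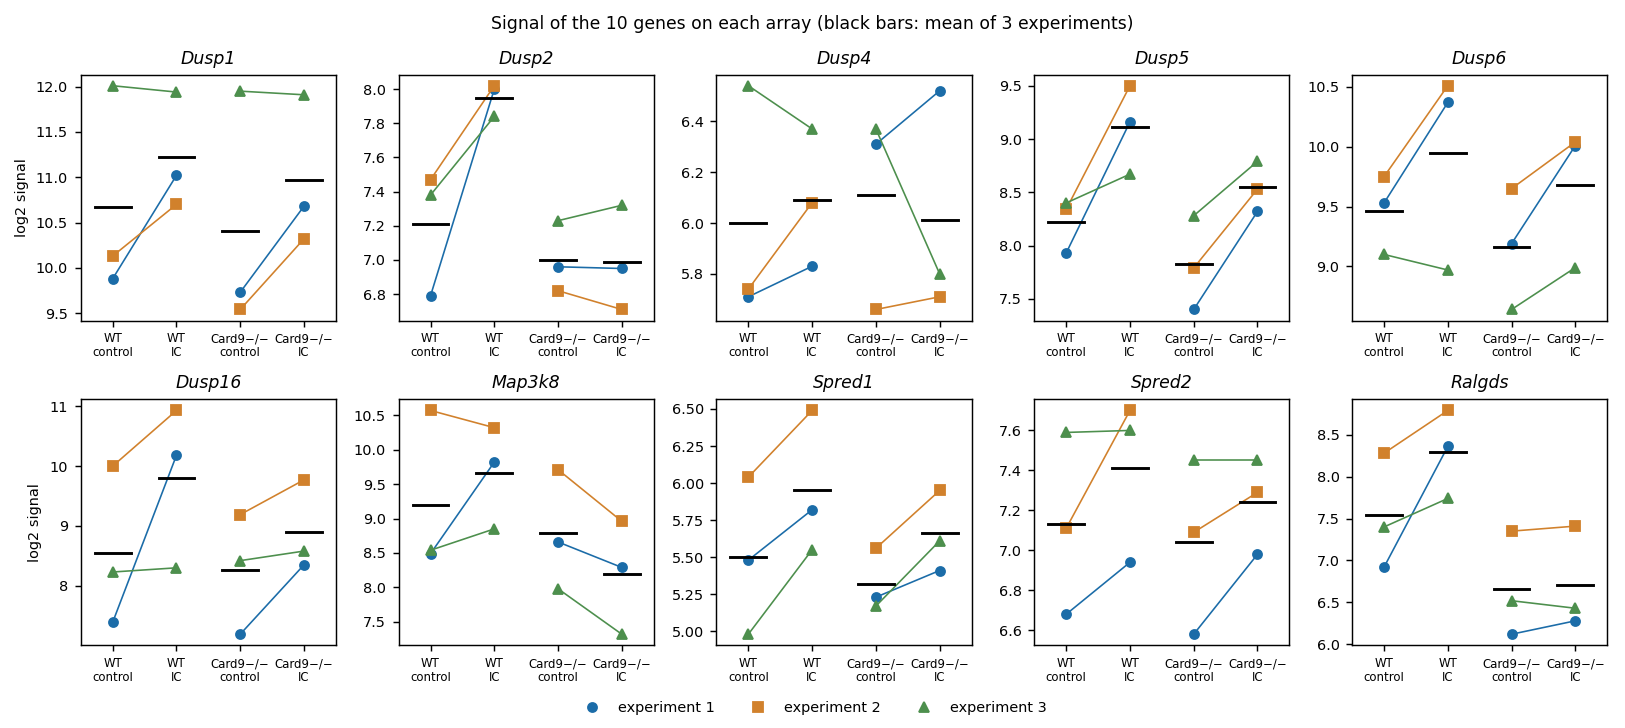
Log2 signal (vertical axes, scaled separately for each gene) of the 10 genes on the 12 arrays in the 4 groups (horizontal axes). Symbols and colours are experiments, thin lines connect both surfaces for 1 genotype and experiment, and black bars give the mean of each group; for *Ralgds* the 3 *Card9*-/- IC signals (6.28 to 7.41) lie below all wild-type IC signals (7.74 to 8.79).

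*Dusp5* encodes a nuclear phosphatase specific for ERK. Its wild-type signals were 7.93, 8.34 and 8.40 in experiments 1, 2 and 3 on the control surface and 9.16, 9.50 and 8.67 on IC. The 3 IC signals all lay above the 3 control signals, as was so for 0.902% of all clusters. The log2 difference was 0.89 (standard error 0.22, 95% interval 0.41 to 1.36, n = 3 experiments, limma adjusted p = 0.347), which is 1.85-fold. Without experiment 3 it was 1.20 and passed the limma test (adjusted p = 0.0284).

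*Dusp2* encodes an inducible nuclear phosphatase found mainly in blood cells. It had signals of 6.79, 7.47 and 7.38 on the control surface and of 8.0, 8.02 and 7.84 on IC in wild-type cells. These groups did not overlap either, and the IC signals lay closer together (SD 0.10) than the control signals (SD 0.37). The log2 difference was 0.74 (standard error 0.18, limma adjusted p = 0.347), with 1.21, 0.54 and 0.46 in the 3 experiments.

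*Dusp16* encodes a phosphatase that acts on JNK and p38. Its wild-type signals were 7.39, 10 and 8.23 on the control surface and 10.18, 10.93 and 8.30 on IC. It had the largest mean log2 difference of the 10 genes in this comparison, 1.26, and the largest standard error, 0.44 (limma adjusted p = 0.438). The difference was 2.79, 0.93 and 0.06 in experiments 1, 2 and 3, and it was 0.50 without experiment 1, so that its size rests on that experiment.

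*Dusp1* encodes the nuclear phosphatase MKP-1, which inactivates p38 and JNK. Its wild-type control signals were 9.88, 10.13 and 12.01 and its IC signals 11.02, 10.70 and 11.94. The signal was thus higher on IC in experiments 1 and 2, while in experiment 3 it was about as high on both surfaces. All 4 arrays of experiment 3 had *Dusp1* signals between 11.91 and 12.01, above the 9.54 to 11.02 of the other 8 arrays, although the array medians of experiment 3 were the lowest. The mean log2 difference was 0.54 (standard error 0.23, limma adjusted p = 0.493) and became 0.25 without experiment 1 and 0.85 without experiment 3.

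*Dusp6*, which encodes a cytoplasmic phosphatase specific for ERK, had wild-type signals of 9.53, 9.75 and 9.10 on the control surface and of 10.37, 10.51 and 8.97 on IC. Experiment 3 again stood apart, with a difference of −0.13 against 0.85 and 0.76, and the mean was 0.49 (standard error 0.17, limma adjusted p = 0.438), with 0.31 without experiment 1 and 0.80 without experiment 3. *Dusp4*, which encodes another nuclear phosphatase, had signals of 5.71, 5.74 and 6.54 on the control surface and of 5.83, 6.08 and 6.37 on IC. Its mean difference of 0.10 was the smallest of the set, with an interval of −0.43 to 0.62 that holds both directions.

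*Spred1* had the most even response. Its wild-type signals were 5.48, 6.04 and 4.98 on the control surface and 5.82, 6.49 and 5.55 on IC. Alone of the set, *Spred1* had a mean signal that was not above the median of all clusters, while 9 members lay above it. This response was therefore read at low signal. Its differences were 0.34, 0.45 and 0.57, with a mean of 0.45 (standard error 0.15, limma adjusted p = 0.438), and it was the one gene of the set whose response was largest in experiment 3. *Spred2* had signals of 6.68, 7.11 and 7.59 on the control surface and of 6.94, 7.70 and 7.60 on IC, a mean difference of 0.29 (standard error 0.13), with experiment 3 at the control level. The other *Spred2* cluster gave 0.31, and 0.33 in *Card9*-/- cells, where the cluster used here gave 0.20.

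*Map3k8* had wild-type signals of 8.49, 10.57 and 8.54 on the control surface and of 9.82, 10.32 and 8.85 on IC. The difference was above 0 in experiments 1 and 3 (1.32 and 0.30) and below it in experiment 2 (−0.25), in which its control signal was already the highest of the 12 arrays. The mean was 0.46 (standard error 0.23) and became 0.03 without experiment 1 and 0.81 without experiment 2. *Ralgds* had signals of 6.92, 8.28 and 7.40 on the control surface and of 8.36, 8.79 and 7.74 on IC. Its log2 difference was above 0 in 3 of 3 experiments (1.45, 0.50 and 0.34), with a mean of 0.76 (standard error 0.18, limma adjusted p = 0.337) that became 0.42 without experiment 1.

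The second comparison asked what was left of this response without CARD9, the adaptor that couples Syk signalling to NF-κB. In *Card9*-/- cells 7 of the 10 genes had a higher mean signal on IC than on the control surface, against 46.4% of all clusters, and the median log2 difference was 0.27 (0.31, 0.29 and 0.05 in the 3 experiments; −0.01 over all clusters). In limma 0 of the 10 passed, with 0.0% of all clusters, and 0 passed in the factorial model without moderation. At an unadjusted p under 0.05, 4 genes were higher (*Dusp1*, *Dusp5*, *Dusp6* and *Spred1*; 1.87% of all clusters) and *Map3k8* was lower (1.15% of all clusters).

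*Dusp5* had *Card9*-/- signals of 7.40, 7.79 and 8.28 on the control surface and of 8.32, 8.53 and 8.79 on IC. The groups did not overlap, as for 0.646% of all clusters. The log2 difference was 0.72 (standard error 0.22, 95% interval 0.25 to 1.19), close to the wild-type value, and above 0 in 3 of 3 experiments. *Dusp1* had signals of 9.73, 9.54 and 11.95 on the control surface and of 10.68, 10.32 and 11.91 on IC. Its pattern over the experiments repeated that of wild-type cells: differences of 0.95 and 0.78 in experiments 1 and 2 and of −0.04 in experiment 3.

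*Dusp6* had *Card9*-/- signals of 9.19, 9.65 and 8.64 on the control surface and of 10.01, 10.04 and 8.99 on IC. The difference, 0.52 (standard error 0.17), was above 0 in all 3 experiments, experiment 3 included. *Spred1* signals were 5.23, 5.56 and 5.17 on the control surface and 5.41, 5.95 and 5.61 on IC, a difference of 0.34 (standard error 0.15). *Dusp16* signals were 7.19, 9.19 and 8.42 on the control surface and 8.35, 9.77 and 8.58 on IC. Its difference of 0.63 (standard error 0.44) was above 0 in 3 of 3 experiments and had an interval of −0.34 to 1.6. *Spred2* had a difference of 0.20, from signals of 6.58, 7.09 and 7.45 on the control surface and of 6.98, 7.29 and 7.45 on IC.

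The other 4 genes stayed near their control or below it. *Dusp2* had *Card9*-/- signals of 6.96, 6.82 and 7.23 on the control surface and of 6.95, 6.71 and 7.32 on IC, so that each pair lay within 0.11, and the mean log2 difference was −0.01 (95% interval −0.40 to 0.38). *Ralgds* signals were 6.12, 7.35 and 6.52 on the control surface and 6.28, 7.41 and 6.43 on IC, a mean difference of 0.04 (−0.36 to 0.44). *Map3k8* signals were 8.66, 9.71 and 7.98 on the control surface and 8.29, 8.96 and 7.32 on IC. *Map3k8* was lower on IC in 3 of 3 experiments (−0.37, −0.75 and −0.67), with a mean of −0.60 (standard error 0.23, 95% interval −1.10 to −0.09, limma adjusted p = 1.0). *Dusp4* had *Card9*-/- signals of 6.31, 5.66 and 6.37 on the control surface and of 6.52, 5.71 and 5.80 on IC, with a mean difference of −0.10 and no common direction.

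**Figure D2:**
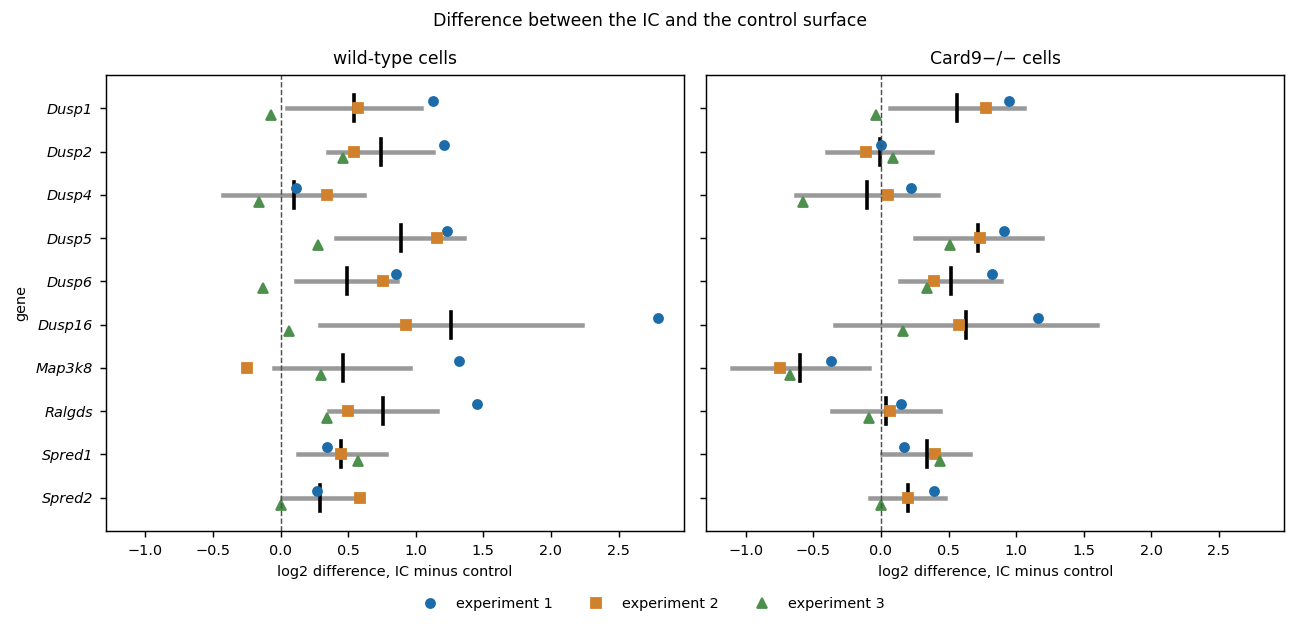
Log2 signal on IC minus log2 signal on the control surface (horizontal axes) for each gene in wild-type cells (left) and *Card9*-/- cells (right). Each symbol is 1 experiment, the black tick marks the mean and the grey bar spans limma's 95% confidence interval; *Dusp5* has means of 0.89 and 0.72, *Dusp2* of 0.74 and −0.01, and *Map3k8* of 0.46 and −0.60.

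The difference between these responses was tested directly, as the response in *Card9*-/- cells minus that in wild-type cells. It was below 0 on average for 8 of the 10 genes (56.4% of all clusters), with a median of −0.18 against −0.03 over all clusters. In limma 0 of the 10 passed, with 0.0% of all clusters, and 0 in the factorial model without moderation. At an unadjusted p under 0.05 the response was smaller for 3 genes, *Map3k8*, *Dusp2* and *Ralgds*, against 2.65% of all clusters. These comparisons share arrays with those above, so that the 3 genes are described by their own values.

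For *Map3k8* the difference of the responses was −1.06 (standard error 0.33, 95% interval −1.77 to −0.34, limma adjusted p = 0.999), and it was below 0 in 3 of 3 experiments (−1.69, −0.50 and −0.97). For *Dusp2* it was −0.75 (standard error 0.25, interval −1.30 to −0.19), with −1.21, −0.66 and −0.37. For *Ralgds* it was −0.72 (standard error 0.26, interval −1.28 to −0.15), with −1.29, −0.43 and −0.43. Each difference was largest in experiment 1, in which the wild-type response of the same gene was also largest.

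For *Dusp1* and *Dusp6* the difference lay near 0, at 0.02 (95% interval −0.68 to 0.72) and 0.03 (−0.50 to 0.56), and for *Dusp5* it was −0.17 (−0.84 to 0.50). *Spred1* gave −0.12 (−0.58 to 0.34) and *Spred2* −0.09 (−0.48 to 0.30). These intervals still hold differences of about the size of the wild-type responses themselves, so the data do not show that the 2 genotypes responded alike. *Dusp16* had a difference of −0.63 with an interval of −2.0 to 0.74; the experiments gave −1.63, −0.35 and 0.10. *Dusp4* gave −0.20 (−0.94 to 0.54).

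**Figure D3:**
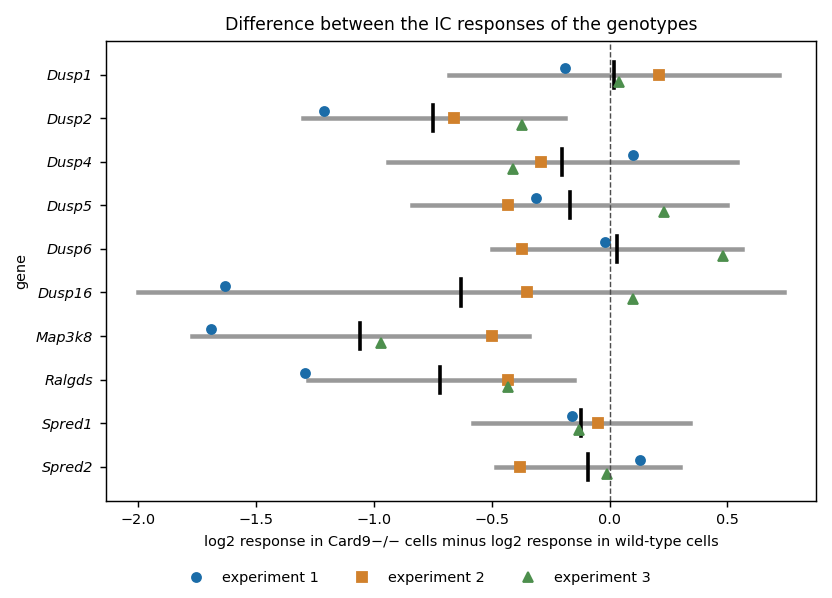
How far the responses to IC differed (horizontal axis, log2 response in *Card9*-/- cells minus log2 response in wild-type cells) for each gene. Each symbol is 1 experiment, the black tick marks the mean and the grey bar spans limma's 95% confidence interval; the intervals of *Map3k8* (−1.77 to −0.34), *Dusp2* (−1.30 to −0.19) and *Ralgds* (−1.28 to −0.15) lie below 0 before adjustment over all clusters.

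The comparison of the genotypes on IC gave the calls of this set. *Ralgds* and *Map3k8* were lower in *Card9*-/- cells and passed the limma test over all clusters, 2 of the 10 genes, against 0.117% of all clusters called lower and 0.0449% called higher. All 10 genes had a lower mean signal in *Card9*-/- cells (53.6% of all clusters), with a median log2 difference of −0.43 (−0.63, −0.75 and −0.09 in the 3 experiments) against −0.01 over all clusters. At an unadjusted p under 0.05, 4 genes were lower (*Ralgds*, *Map3k8*, *Dusp2* and *Dusp5*; 5.1% of all clusters), and 4 were lower in 3 of 3 experiments (*Ralgds*, *Map3k8*, *Dusp2* and *Dusp1*; 15.4% of all clusters). In bulk RNA a smaller number of cells that express a gene and less of its RNA in each cell cannot be told apart.

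*Ralgds* fell by 1.59 on the log2 scale in *Card9*-/- cells on IC (standard error 0.18, 95% interval −1.99 to −1.19, n = 3 experiments, limma adjusted p = 0.00623), to 0.332 of the wild-type signal. The 3 *Card9*-/- signals (6.28, 7.41 and 6.43) all lay below the 3 wild-type signals (8.36, 8.79 and 7.74), as was so for 1.03% of all clusters, and the differences were −2.09, −1.37 and −1.31. *Map3k8* fell by 1.47 (standard error 0.23, interval −1.98 to −0.96, limma adjusted p = 0.0393), to 0.361 of the wild-type signal. Its signals on IC (8.29, 8.96 and 7.32 in *Card9*-/- and 9.82, 10.32 and 8.85 in wild-type cells) overlap across experiments but not within them. The difference within an experiment was nearly constant, at −1.52, −1.36 and −1.53. The summed linear signal of the monocyte and macrophage markers was also lower in *Card9*-/- cells on IC in 3 of 3 experiments. It was 2770, 3680 and 4460 against 4260, 5880 and 4910. The median log2 difference over these 8 markers was below 0 in experiment 2 alone (0.04, −0.51 and 0.03). By their means over the experiments, 6 of the markers were lower and 2 higher. The part of these cells in the differences of *Ralgds* and *Map3k8* was not tested.

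Both calls rest on the pairing by experiment, and both were lost without experiment 2. The log2 differences without experiment 2 were no smaller in size, at −1.70 for *Ralgds* and −1.53 for *Map3k8*. Neither gene passed without the replicate block or in the factorial model without moderation, and without experiment 2 the limma adjusted p was 0.224 for *Ralgds* and 0.249 for *Map3k8*. Without experiment 3 it was 0.0324 for *Ralgds* and 0.134 for *Map3k8*, and after median centring 0.0727 for *Map3k8*. The log2 differences themselves moved little, between −1.73 and −1.34 for *Ralgds* and between −1.53 and −1.44 for *Map3k8* when each experiment was left out.

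*Dusp2* lay closest to the threshold among the rest, at −0.96 (standard error 0.18, 95% interval −1.35 to −0.57, limma adjusted p = 0.0724). It was lower in 3 of 3 experiments (−1.04, −1.31 and −0.52), and its *Card9*-/- signals on IC, 6.71 to 7.32, did not overlap the wild-type signals, 7.84 to 8.02. *Dusp5* had a mean of −0.57 (standard error 0.22, limma adjusted p = 0.447) from −0.84, −0.97 and 0.12; without experiment 3 it was −0.91 and passed (adjusted p = 0.0259), and without experiment 2 it was −0.36. *Dusp16* likewise had −1.83 and −1.16 in experiments 1 and 2 and 0.28 in experiment 3, with a mean of −0.90 (interval −1.87 to 0.07). The remaining genes had smaller means: −0.29 for *Spred1*, −0.27 for *Dusp6*, −0.25 for *Dusp1*, −0.17 for *Spred2* and −0.08 for *Dusp4*.

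On the control surface, which shows what the genotypes differed by without IC, 9 of the 10 genes had a lower mean signal in *Card9*-/- cells (42.6% of all clusters), with a median of −0.27 against 0.03 over all clusters. In limma 0 of the 10 passed (0.038% of all clusters were called lower and 0.0% higher), and 0 passed in the factorial model without moderation. At an unadjusted p under 0.05, *Ralgds* was lower, against 2.22% of all clusters. *Ralgds* was lower by −0.87 (standard error 0.18, 95% interval −1.27 to −0.47, limma adjusted p = 0.38) and its differences of −0.80, −0.94 and −0.88 were among the most even of the set. Its signals on this surface, 6.92, 8.28 and 7.40 in wild-type and 6.12, 7.35 and 6.52 in *Card9*-/- cells, nevertheless overlapped across experiments. *Map3k8* and *Dusp2* had no common direction here: *Map3k8* gave 0.17, −0.85 and −0.56 (mean −0.41) and *Dusp2* gave 0.17, −0.65 and −0.15 (mean −0.21). Like *Ralgds*, *Dusp5*, *Dusp6*, *Dusp1* and *Spred2* were lower in 3 of 3 experiments, by means of −0.40, −0.30, −0.27 and −0.09; these 5 genes compare with 12.8% of all clusters. *Dusp4* was higher on average, by 0.12, from 0.59, −0.08 and −0.16.

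**Figure D4:**
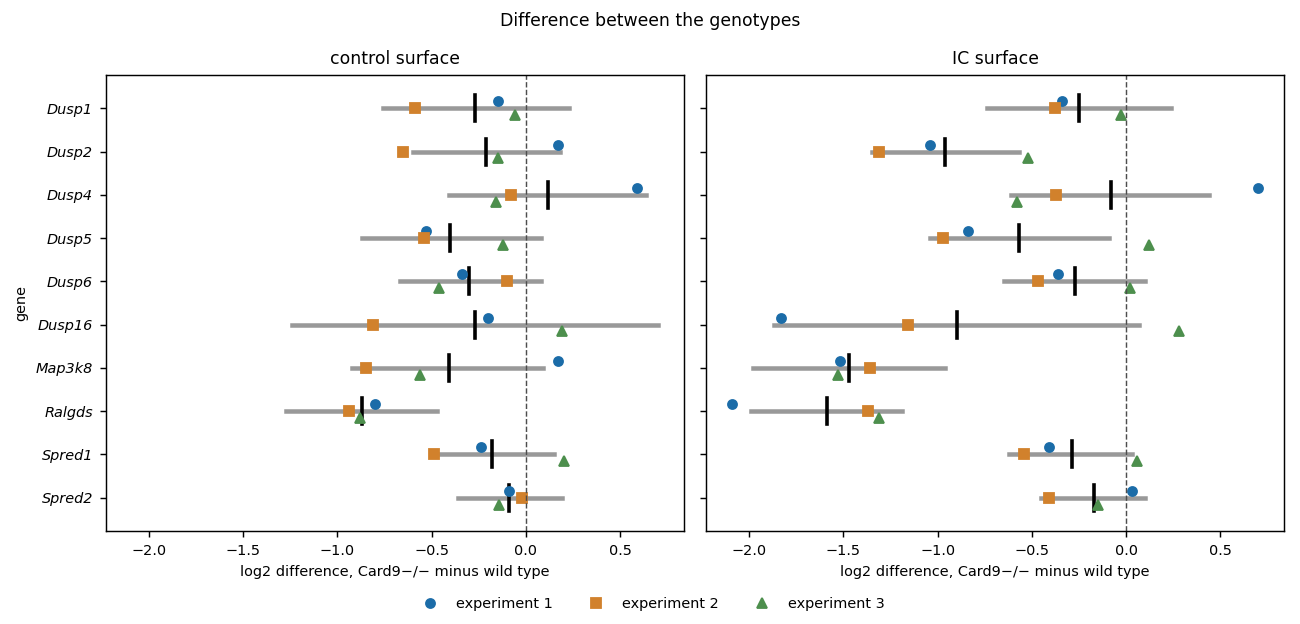
Log2 signal in *Card9*-/- cells minus that in wild-type cells (horizontal axes) for each gene on the control surface (left) and on IC (right). Each symbol is 1 experiment, the black tick marks the mean and the grey bar spans limma's 95% confidence interval; *Ralgds* lies at −0.87 and −1.59 and *Map3k8* at −0.41 and −1.47.

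Other genes of the pathway were read from whole lists. Of the other 4 MAPK phosphatase genes measured, 0 passed the limma test over all clusters in any comparison. *Dusp7*, which encodes a cytoplasmic ERK phosphatase, had a log2 difference of −0.49 on IC in wild-type cells (−0.40, −0.40 and −0.68; adjusted p = 0.438) and of 0.56 between the genotypes on IC (0.94, 0.53 and 0.22; adjusted p = 0.307). *Dusp10*, whose product acts on JNK and p38, had 0.52 on IC in wild-type and 0.28 in *Card9*-/- cells, while *Dusp8* and *Dusp9* had 0.23 and 0.05 in wild-type cells. Of 5 other Sprouty and Spred genes 0 passed. *Spry2*, an inhibitor of receptor signalling to Ras, had 0.38 in wild-type cells (0.24, 0.71 and 0.19) and 0.27 in *Card9*-/- cells (0.08, 0.27 and 0.48), and the other 4 lay between 0.03 and 0.24 in wild-type cells.

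The kinases that these regulators act on were read in the same way. Of 8 measured genes of the ERK cascade 7 were below 0 on IC in wild-type cells, with a median of −0.11, and of 19 genes of the p38 and JNK cascades 14 were below 0, with a median of −0.14, while 40.3% of all clusters were below 0; 0 passed in any comparison. *Map2k3*, which encodes a kinase upstream of p38, had the smallest p of its list between the genotypes on IC, with a log2 difference of −0.47 (−0.37, −0.63 and −0.42; limma adjusted p = 0.226). Among 7 measured kinases downstream of MAPKs, *Mapkapk2*, a p38 substrate that stabilizes cytokine mRNAs, had 0.45 on IC in wild-type cells (0.87, 0.27 and 0.22) and −0.58 between the genotypes on IC (−0.90, −0.41 and −0.44; limma adjusted p = 0.158). The median of that list was −0.29 in wild-type cells on IC. Between the genotypes on IC the list median was 0.19, with 4 genes above and 3 below 0. Of 21 measured Ras and Ral genes 0 passed, with a median of −0.06 in wild-type cells and of 0.04 between the genotypes on IC. *Rras*, a Ras relative, had −0.80 between the genotypes on IC (−0.75, −0.76 and −0.88; limma adjusted p = 0.268).

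Genes that ERK activity is known to induce were read as a last list of 14 genes, which shares *Dusp4* and *Dusp6* with the set. In wild-type cells 13 of 14 had a higher mean on IC (median log2 difference 0.26), and in *Card9*-/- cells 13 of 14 (median 0.15); 0 passed in either (limma, adjusted over all clusters), with 6 and 3 higher at an unadjusted p under 0.05. Over all clusters 59.7% and 46.4% had a higher mean on IC in these comparisons, and 5.18% and 1.87% were higher at that p. *Egr1*, an immediate early transcription factor gene, had 0.69 in wild-type cells (0.80, 0.82 and 0.44) and 0.61 in *Card9*-/- cells (0.42, 0.50 and 0.90). *Ier3*, an early response gene, was lower in *Card9*-/- cells in 3 of 3 experiments on both surfaces, by −0.52 on the control surface and −0.80 on IC (limma adjusted p = 0.942 and 0.0879). The list median between the genotypes was −0.07 on IC, against −0.01 over all clusters.

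The genes with the most similar pattern were sought among all single-gene clusters by Pearson's r over the 12 arrays after the mean of each experiment was subtracted. This is a description, because the 12 points are 4 groups in 3 experiments and the highest of many correlations are taken. For *Ralgds* they were *Nfkbid* (r = 0.979), *Gadd45b* (0.978) and *Best1* (0.971), and for *Map3k8* they were *Ltb* (0.965), *Fas* (0.959) and *Tnip1* (0.958). For *Dusp2* they were *Tes* (0.982), *Traf1* (0.981) and *Treml4* (0.979). For *Dusp16* they were *Prdx1* (0.989), *Nqo1* (0.971) and *Srxn1* (0.971). For *Dusp5* they were *Acsm3* (0.983), *Adtrp* (0.977) and *Trib1* (0.974), and for *Dusp6* a member, *Dusp5*, was the third (0.934) after *Gch1* (0.953) and *Clec4d* (0.936). *Spred1*, read at low signal, was closest to *Olfr746* (0.941), *Olfr1137* (0.931) and *Zmiz1* (0.927). Within the set the highest values were those among *Dusp5*, *Dusp6* and *Dusp1* (0.91 to 0.93) and, for *Dusp16*, 0.91 with *Dusp1* and with *Dusp5*. *Map3k8* had 0.86 with *Ralgds* and 0.82 with *Dusp2* but 0.34 to 0.37 with *Dusp1*, *Dusp5* and *Dusp6*. *Dusp2* and *Ralgds* had 0.88 with each other and 0.61 to 0.78 with *Dusp1*, *Dusp5* and *Dusp6*. *Dusp4* had at most 0.43 with any other gene of the set.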

How the data were processed

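The authors deposited 1 table of normalized log2 signals with 35556 rows; their summarization and normalization are not given in the sources at hand, and the scale was read from the values. Control probe sets, taken as the 6617 rows whose identifiers lie below the lowest annotated one, were set aside. The other 28939 transcript clusters entered the test unfiltered and without further normalization. Symbols came from the platform's annotation table, and a gene with more than 1 cluster is shown by its brightest. A linear model of the 4 groups with experiment as a fixed replicate block was fitted with limma 3.58.1 in R 4.3.3 (lmFit, eBayes). Its p values are two-sided, and Benjamini-Hochberg adjustment covered every cluster, with a threshold of 0.05; intervals are at 95% and unadjusted. Arrays were paired by experiment: deviations from the group means correlated at 0.671 to 0.867 for arrays of 1 experiment and at −0.727 to 0.355 otherwise. Nothing says that arrays of a group came from separate mice. The p values measure the spread of these arrays that is left after groups and experiments are fitted. The small number of arrays limits the precision.

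The members and lists were chosen with earlier results of these data known. The text names the members, genes of each list chosen by the smallest p with 1 direction in all 3 experiments because none passed, and the 3 genes most like a member; *Dusp9* was added after its values were seen, as the rest of its short list. List genes that no single-gene cluster names were not analysed here. Alternatives were no block, a random block, quantile normalization, median centring, clusters above the median signal (9 of the 10 members), limma-trend, robust eBayes, the compared groups alone, no moderation (after the study's two-way ANOVA), the mean of a gene's clusters and leaving out each experiment; testing all rows of the table was chosen after seeing the data. Figures were drawn with matplotlib 3.10.9 in Python 3.11.15.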

Additional observations from a re-analysis of the deposited data

How the results depend on the processing

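The count of genes of the set that passed was 0 for the response of wild-type cells to IC, for that of *Card9*-/- cells, for the difference of the responses and for the genotypes on the control surface, and it stayed 0 under all alternatives run except for the response of wild-type cells, where leaving out each experiment gave 0 to 1 (*Dusp5*, without experiment 3). For the genotypes on IC it was 2 with the replicate block, 0 without the replicate block, 0 without moderation, 1 (*Ralgds*) after median centring and 1 (*Ralgds*) with all rows of the table tested, and 0 to 2 when each experiment was left out; it was 3, with *Dusp2* added, with a random block, after quantile normalization and with the compared groups alone. Over all clusters the genotypes on IC gave 47 calls with the replicate block, 0 without it and without moderation, 22 after median centring, 14 with all rows tested, 105 with a random block and 173 with the compared groups alone; without experiments 1, 2 and 3 it gave 76, 3 and 116. On the control surface 11 clusters passed, and 1 without the block, 6 with robust eBayes, 7 with the compared groups alone, 0 without moderation, 2 with all rows tested and 4, 2 and 7 without experiments 1, 2 and 3. For the response of wild-type cells 0 passed, and 7 with a random block and 51, 1 and 8 without experiments 1, 2 and 3. Directions turned only for log2 differences that lay in the main fit between −0.21 and 0.12. Both of these values are for the genotypes on the control surface, *Dusp2* and *Dusp4*. Quantile normalization gave −0.0017 for *Dusp1* and −0.0803 for *Dusp6* in the difference of the responses, and median centring gave 0.013 for *Dusp2* in *Card9*-/- cells on IC. Leaving out each experiment gave −0.025 to 0.23 for *Dusp4* on IC in wild-type cells. In *Card9*-/- cells on IC it gave −0.26 to 0.13 for *Dusp4*, −0.059 to 0.045 for *Dusp2* and −0.013 to 0.11 for *Ralgds*. For the difference of the responses it gave −0.075 to 0.12 for *Dusp1*, −0.197 to 0.23 for *Dusp6* and −0.195 to 0.0597 for *Spred2*. Between the genotypes it gave −0.403 to 0.0077 for *Dusp2* and −0.12 to 0.26 for *Dusp4* on the control surface and −0.47 to 0.16 for *Dusp4* on IC. The cause of these changes was not tested. The fit of the compared groups alone was not run for the difference of the responses, which needs all 4 groups.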
